A study of Mus musculus with 87 samples.

Results

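The genes described here encode nuclear parts of the oxidative phosphorylation machinery of the mouse. They were taken by name: every protein-coding gene whose symbol starts with Nduf, Sdha, Sdhb, Sdhc, Sdhd, Uqcr, Cox4i, Cox5, Cox6, Cox7, Cox8 or Atp5. The rule found 97 genes among 21474 protein-coding genes and 43346 Ensembl genes in the tables, and used no measured value. Of the 97, 82 encode subunits of the complexes (36 of complex I, 4 of complex II, 8 of complex III, 18 of complex IV and 16 of complex V), and 15 encode assembly factors or related proteins (Ndufaf1 to Ndufaf8, Sdhaf1 to Sdhaf4, Cox7a2l, Ndufa4l2 and Atp5s). Ndufa4, named for complex I, was placed with complex IV, where the protein is found.

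Oxidative phosphorylation makes ATP in the inner mitochondrial membrane. Complexes I (NADH dehydrogenase) and II (succinate dehydrogenase) pass electrons to ubiquinone, complex III (cytochrome bc1) passes them on to cytochrome c and complex IV (cytochrome c oxidase) to oxygen, while complex V (ATP synthase) uses the proton gradient so built. A few core subunits are encoded by mitochondrial DNA and all others by nuclear genes, so both genomes supply parts of complexes I, III, IV and V. Heart muscle is rich in mitochondria, and several subunits of complex IV exist as a form found in most tissues and a form of heart and skeletal muscle.

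RNA was measured by RNA-seq in 64 libraries of tissues dissected from FVB mouse embryos at embryonic day 11.5, from 7 lines (B2 to B8), each carrying a CRISPR/Cas9 deletion of 1 boundary between topologically associating domains, the blocks of chromatin that contact themselves more than their neighbours. In each line, homozygous embryos were set against wild-type littermates: lung (6 homozygous, 6 wild-type) and heart (4 and 4) in B2, heart and face in B3 and B5, face in B6 and B7, gut and midbrain in B4, and forebrain and neural tube in B8 (2 and 2 in each of these groups). Hearts of B6 and B7 were homozygous (2 each), with wild-type hearts not analysed here for either line. The study calls the replicates biological, but the labels do not say which libraries share a litter (lung titles carry a code common to several libraries, of unstated meaning), so the p-values measure the spread between these samples, and 1 line stands for each deletion.

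Total counts ran between 8391550 and 31793400 per library (median 21394000). The lungs stood apart: estimated fragments were 163 to 193 bases long in lungs, against 205 to 299 bases in the other tissues, and the 7SL RNA gene Rn7s1 took 167174 to 192188 TPM in 10 lungs, against at most 10669 TPM outside the lung. In the wild-type lungs E5420-07 and E5420-09, mitochondrially encoded genes took 0.362% and 1.54% of counts, where the remaining 10 lungs had 11.3% or more, and the 10 most abundant genes took 29.7% and 90.1%. Heart muscle genes (Myh6, Myh7, Tnnt2, Actc1, Myl7, Nkx2-5 and Nppa) set the hearts apart, with 9725 to 29398 TPM in sum, against at most 451 TPM elsewhere. The summed TPM of the 4 lung markers did not set the lungs apart from gut or face. They summed to 27.9 to 117 TPM in lungs (91.2 to 117 TPM without E5420-07 and E5420-09), against 97.5 to 128 TPM in gut and 73.7 to 108 TPM in faces. By counts scaled to library size, Tbx4, Foxf1 and Nkx2-1 were higher in B2 lungs than in B2 hearts. Their log2 fold changes were 5.83, 5.09 and 4.64, while that of Sox9 was -0.03. The 4 gut markers overlapped between gut (158 to 207 TPM) and face (116 to 206 TPM). The homozygous B5 heart A21 also held face mesenchyme markers (464 TPM over 6 genes, against 37.0 to 212 TPM in the other hearts and 578 to 863 TPM in faces), and the gut libraries held liver genes (3891 to 6559 TPM over 4 genes). Hearts of B3 and B5 varied in other markers too. B3 hearts reached 101 TPM for lung markers (median 24.2) and 60.8 TPM for gut markers (median 5.08). B5 hearts reached 73.9 TPM (median 49.2) and 66.3 TPM (median 28.4).

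The level of the whole set was highest in heart. Levels are given as TPM, the RSEM measure that scales each gene by its length and each library to the same total. The 97 genes summed to 39747 to 67279.8 TPM in the 20 hearts (median 55506) and to 30867 to 37036 TPM in the 16 faces (median 33437), so that every heart lay above every face. The median was 31194 TPM in gut, 29583 in midbrain, 29587 in forebrain and 29968 in neural tube (4 libraries each), with ranges that overlapped in part, and the ranges of midbrain and neural tube did not differ beyond their spread. Lungs were lowest, with 2096 to 10314 TPM (median 9182 over 12 lungs, and 9207 over the 10 without E5420-07 and E5420-09). Rescaled to the nuclear protein-coding genes of each library, the lung median was 23593, against 31947 or more in the other tissues, so lung stayed lowest by a smaller gap.

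**Figure D1:**
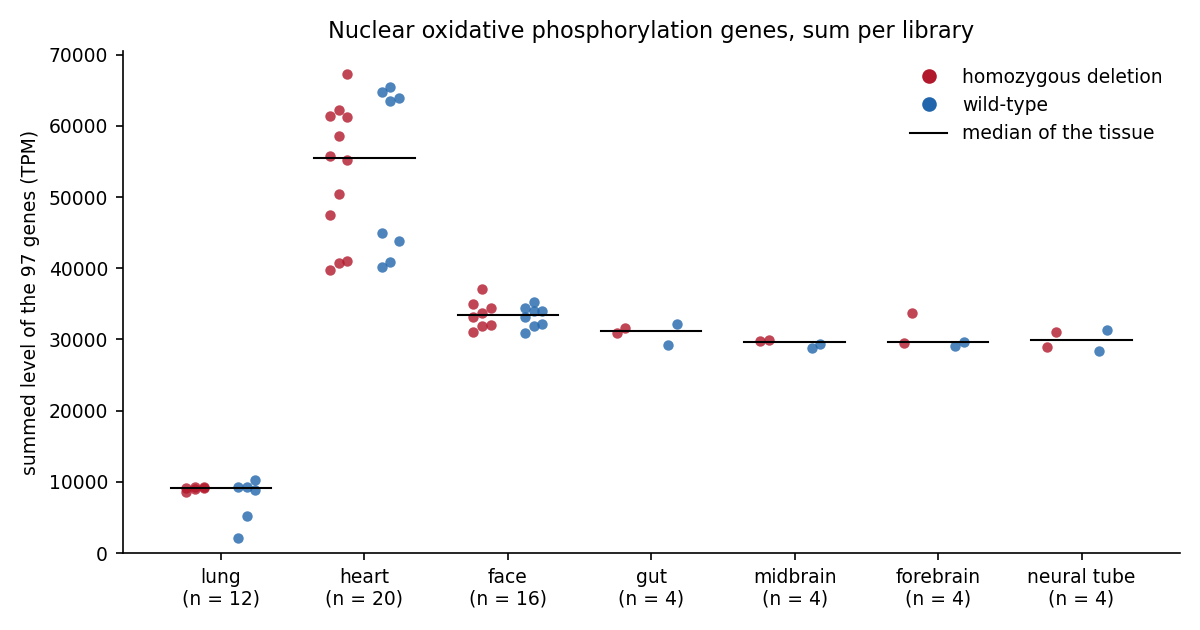
Summed level of the 97 genes in each library (vertical axis, TPM), by tissue (horizontal axis, with the number of libraries); points are libraries, red for homozygous deletions and blue for wild-type, and lines are medians over the tissue. All 20 hearts lie at or above 39747 TPM, the faces between 30867 and 37036 TPM, and the lungs at or below 10314 TPM.

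Among lines the hearts covered a wide range. The sums were 55258 to 67279.8 TPM in B2 hearts, 55754 to 62175 TPM in B6 hearts, 43770.3 to 58561 TPM in B3 hearts, 40951 to 50359 TPM in B7 hearts and 39747 to 40812 TPM in B5 hearts. Red blood cell genes differed too: the 4 globin genes Hba-x, Hbb-y, Hba-a1 and Hbb-bh1 summed to 29477 to 269184 TPM in hearts, against 14801 to 30278 TPM in faces, with 5 of the 7 highest sums in hearts of B5 and B7. Because TPM are shares of a library, the part of these transcripts in the differences among hearts was not tested, and in whole tissue fewer cells of a type and less RNA per cell cannot be told apart. For the lung, the tissue and the library properties given above cannot be told apart.

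The complexes kept similar shares of the sum in every tissue. Complex V took 39% of it in hearts (median; 33.9 to 41.6%) and 39.8% in faces (37.6 to 41.7%), complex I 22.8% in hearts and 24.8% in faces, and complex IV 25.6% in hearts and 23.3% in faces. Complex III took 11.3% in hearts and 9.91% in faces, and complex II, which has the fewest subunits, 2.0% in hearts and 2.24% in faces. The 13 mitochondrially encoded protein genes summed to 0.601 to 1.48 times the nuclear genes in hearts (median 0.989), against 0.414 to 1.21 times in faces (median 0.836).

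The most abundant member was Atp5b, the catalytic beta subunit of ATP synthase. Its TPM ran between 4435 and 8736 in hearts (median 5449.9), between 2521 and 3843 in faces (median 3235) and between 187 and 789 in lungs (median 652). Atp5e, the epsilon subunit of the same enzyme, followed with a median of 1207 TPM over all 64 libraries, and Cox4i1, the widely expressed form of subunit 4 of cytochrome c oxidase, with 1066 TPM. At the other end were Cox6a2 (0.59 TPM over all libraries), a muscle form, and Cox7b2 and Cox8c, both known from testis, with medians of 0. Cox7b2 collected 48 counts in 25 libraries and Cox8c 2 counts in 2 libraries, too few to compare tissues.

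Across the 6 tissues other than lung, heart had the highest median TPM for 78 of the 95 genes other than Cox7b2 and Cox8c. Face was highest for 6, forebrain for 4, gut and midbrain for 3 each and neural tube for 1. For 14 genes every heart lay above every library of the other 5 tissues: the ATP synthase subunits Atp5b, Atp5c1, Atp5d, Atp5g1, Atp5g3 and Atp5o, the cytochrome c oxidase subunits Cox5a, Cox6a2, Cox6b1, Cox7a1, Cox8a and Cox8b, and the complex III subunits Uqcr10 and Uqcr11. Lung had the lowest median of all 7 tissues for 94 of these 95 genes.

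The contrast of heart and face used 12 hearts and 12 faces from the line and genotype groups that had both tissues. Counts were compared with edgeR's quasi-likelihood test, with the line and genotype group as a term and Benjamini-Hochberg adjustment over all 16211 genes tested, with an adjusted p under 0.05 as the threshold for a call. Of 95 members tested, 90 were higher in heart and 3 lower, where 37.7% of all genes tested were called higher and 41.4% lower. The members' median log2 fold change was 0.84, against -0.04 over all genes. All 80 subunits tested were higher in heart, and for 36 members the hearts and faces did not overlap in CPM (counts scaled to the size of the library), which was the case for 29.5% of all genes.

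The rise covered the 5 complexes. The median log2 fold change was 0.75 over the 36 subunits of complex I, 0.97 over the 4 of complex II, 1.11 over the 8 of complex III, 1.05 over the 16 of complex IV tested and 0.82 over the 16 of complex V. Only Cox7b2 and Cox8c were too low to be tested. The smallest differences among subunits were those of Atp5g2, one of the genes for the membrane ring subunit c (0.29, SE 0.07), and of the accessory complex I subunits Ndufa7 (0.34, SE 0.08) and Ndufa2 (0.35, SE 0.06).

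**Figure D2:**
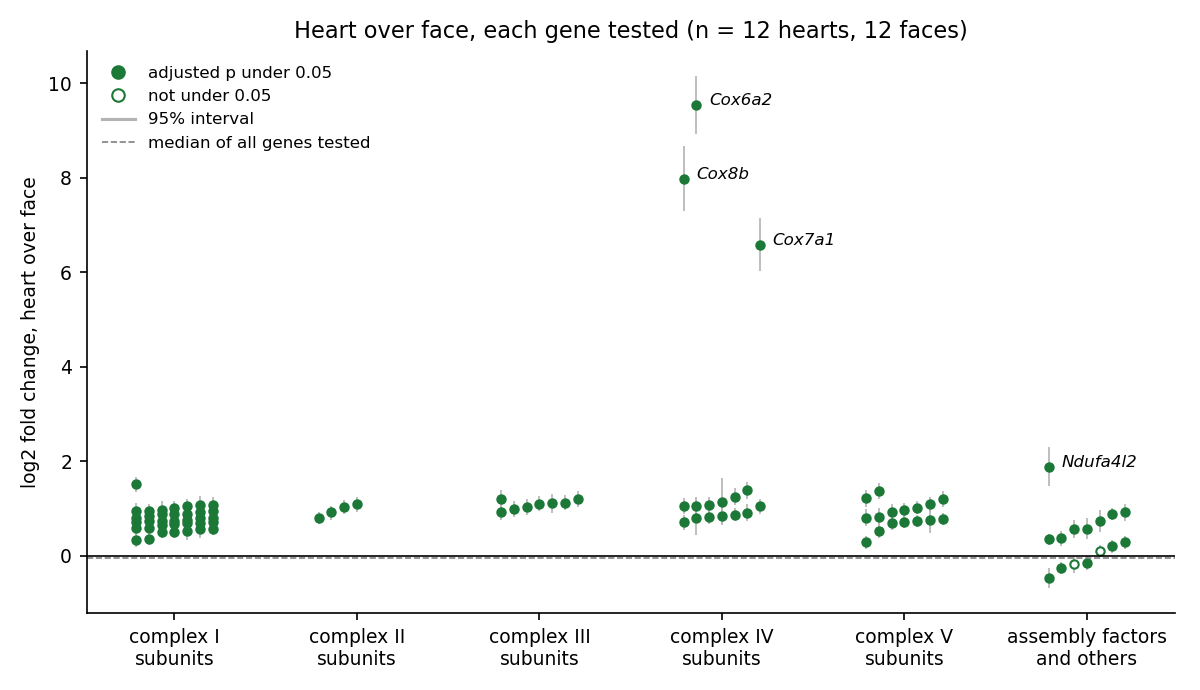
Log2 fold change of each of the 95 genes tested, heart over face (vertical axis), grouped by complex with assembly factors and related genes at the right; bars are 95% intervals, filled points passed an adjusted p under 0.05 and the dashed line is the median of all 16211 genes (-0.04). Cox6a2 (9.54), Cox8b (7.98) and Cox7a1 (6.58) lie far above the other subunits, which lie between 0.29 and 1.52.

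In complex I, Ndufs1, the large iron-sulphur subunit of the electron input module, changed most. It had 205 to 398 CPM in hearts (median 328), against 101 to 118 CPM in faces (median 110.1). Every heart thus lay above every face, and the log2 fold change was 1.52 (SE 0.08, adjusted p = 5.18e-13, edgeR). The NADH-binding subunit Ndufv1 averaged 259 ± 44.9 CPM in hearts and 124 ± 8.9 CPM in faces (SD, n = 12 each), with a log2 fold change of 1.05. Its partner Ndufv2 differed by 0.80.

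In complex II, the flavoprotein subunit Sdha averaged 448 ± 74.4 CPM in hearts and 217 ± 12 CPM in faces (SD, n = 12 each), which gave a log2 fold change of 1.03 (SE 0.07). In TPM the tissues overlapped for the same gene, with 125 to 355 TPM in hearts (20 libraries, median 181) and 106 to 234 TPM in faces (16 libraries, median 185). The effective length that the deposited tables gave Sdha differed between libraries, so its TPM and its counts do not order the tissues alike. The iron-sulphur subunit Sdhb rose by 0.80 and Sdhd, a membrane anchor, had 138 to 261 CPM in hearts, against 87.0 to 130.5 CPM in faces.

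Complex III moved as a block. The Rieske iron-sulphur protein Uqcrfs1 had 165 to 321 CPM in hearts (median 259.9), against 108 to 137 CPM in faces (median 118), with a log2 fold change of 1.13. The core protein Uqcrc1 differed by 0.92, and the small subunits Uqcr10, Uqcr11 and Uqcrq by 1.21, 1.11 and 1.10. The 8 subunits spanned 0.92 to 1.21.

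Among the subunits of complex IV that most tissues share, Cox5a, a nuclear-encoded subunit of the matrix side, changed most. It had 175 to 372 CPM in hearts (median 347), against 97.4 to 142 CPM in faces (median 125), with no overlap and a log2 fold change of 1.39 (SE 0.09). Cox7b followed with 1.25 (SE 0.09), and the widely expressed forms Cox6a1 (1.08), Cox6b1 (1.05) and Cox8a (1.05) and the zinc-binding Cox5b (1.05) lay close together. Cox7a2, the widely expressed form of subunit 7a, rose by 0.87, Ndufa4 by 0.84, Cox4i1 by 0.82 and Cox7c by 0.71, the smallest difference in the complex.

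In complex V, Atp5b had 1964 to 3694 CPM in hearts (median 3041) and 1215 to 1441 CPM in faces (median 1308), with a log2 fold change of 1.21 (SE 0.08). Its partner in the catalytic head, Atp5a1, differed by 1.09. Of the 3 genes for subunit c, which encode the same mature protein behind different import sequences, Atp5g1 rose most (1.37, SE 0.08), with 170.1 to 352 CPM in hearts and 99.1 to 128 CPM in faces. Atp5g3 followed with 1.22 and Atp5g2 came last with 0.29.

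The largest differences of all belonged to the muscle forms of cytochrome c oxidase. Cox6a2, the heart and skeletal muscle form of subunit 6a, had 143 to 415 TPM in the 20 hearts (median 292), against at most 1.66 TPM in faces, 0.19 TPM in lungs, 1.38 TPM in gut, 0.61 TPM in midbrain and 1.05 TPM in forebrain. Cox7a1, the muscle form of subunit 7a, had 154 to 720.3 TPM in hearts (median 487) and at most 13 TPM in any other library. Cox8b, the muscle form of subunit 8, had 33.5 to 198 TPM in hearts (median 107) and at most 18.5 TPM elsewhere. For each of these genes every heart lay above every other library.

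**Figure D3:**
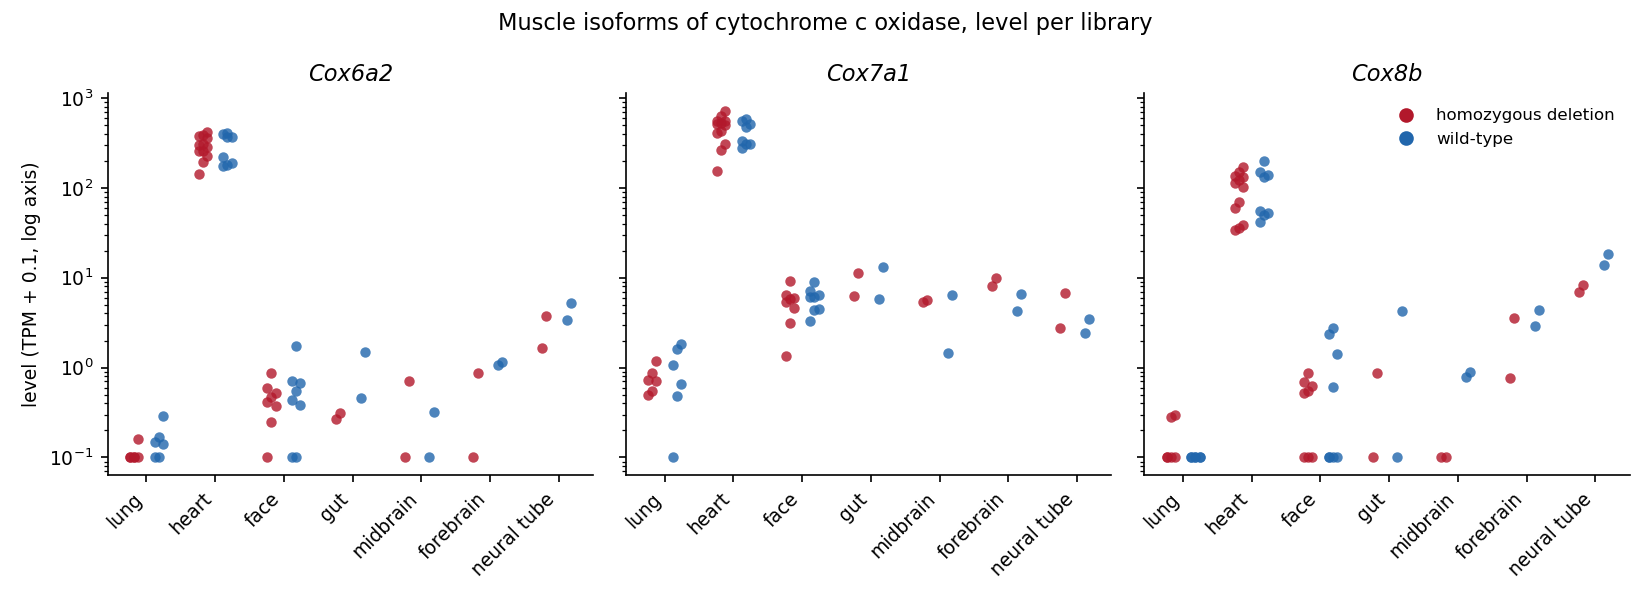
Level of Cox6a2, Cox7a1 and Cox8b in each of the 64 libraries (vertical axis, TPM + 0.1 on a log axis), by tissue; red points are homozygous and blue points wild-type libraries. Hearts reach 415, 720.3 and 198 TPM in the 3 panels, and the neural tubes (6.8 to 18.5 TPM for Cox8b) lie above the faces for Cox8b (up to 2.68 TPM) and overlap them for Cox6a2 (1.55 to 5.08 TPM in neural tubes, up to 1.66 TPM in faces).

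Counts behind the face values were few. Over the 12 hearts and 12 faces of the contrast, Cox6a2 collected 21553 counts in hearts and 34 in faces, Cox7a1 9462 in hearts and 119 in faces, and Cox8b 1590 in hearts and 6 in faces. The log2 fold changes were 9.54 (SE 0.29), 6.58 (SE 0.27) and 7.98 (SE 0.33), each higher in 12 of 12 hearts than in any face, and for such sparse faces their size depends on the small count that the fit adds. All 3 kept their call within B3 alone and within B5 alone.

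Among hearts, these genes were lowest in B5 and high in B2 and B6. Cox7a1 had a median of 286 TPM in B5 hearts (154 to 330.2), 515 TPM in B2 hearts (404 to 632) and 562 and 720.3 TPM in the B6 hearts. Cox8b had a median of 45.1 TPM in B5 hearts, 54.5 TPM in B3 hearts and 137 TPM in B2 hearts, and 35.7 and 69.0 TPM in the B7 hearts. The heart A21, which held face markers, had the lowest Cox6a2 (143 TPM), Cox7a1 (154 TPM) and Cox8b (33.5 TPM) of all 20 hearts, beside the lowest sum of heart muscle genes (9725 TPM). Without it 90 members were still called higher and 3 lower, with a median of 0.88, and without the 5 hearts with most of the embryonic globin Hba-x (31525.2 TPM or more) 89 were called higher and 2 lower, with a median of 0.73. Both of these were chosen after seeing the data, and the share of all genes called was not computed for either.

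Cox6a2 had no entry in the promoter set used here, so its pair is not shown. The promoters of Cox7a1 and Cox8b and of their widely expressed partners Cox7a2 and Cox8a are shown as pairs of a muscle form and its widely expressed partner that differed in how far they rose in heart. Each runs over 300 bases, 250 before the annotated start and 50 after it, read 5′ to 3′ on the gene's strand (RefSeq, GRCm38.p6), with capitals at matches to the 8 motifs listed further on, on either strand.
Cox7a1, chr7:30183921-30184220, plus strand: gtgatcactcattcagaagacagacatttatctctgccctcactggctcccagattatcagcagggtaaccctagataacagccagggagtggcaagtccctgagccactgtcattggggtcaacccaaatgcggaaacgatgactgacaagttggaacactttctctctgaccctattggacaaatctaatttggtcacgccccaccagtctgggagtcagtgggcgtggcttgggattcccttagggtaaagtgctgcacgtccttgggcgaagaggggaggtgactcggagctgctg
Cox7a2, chr9:79759804-79760103, minus strand: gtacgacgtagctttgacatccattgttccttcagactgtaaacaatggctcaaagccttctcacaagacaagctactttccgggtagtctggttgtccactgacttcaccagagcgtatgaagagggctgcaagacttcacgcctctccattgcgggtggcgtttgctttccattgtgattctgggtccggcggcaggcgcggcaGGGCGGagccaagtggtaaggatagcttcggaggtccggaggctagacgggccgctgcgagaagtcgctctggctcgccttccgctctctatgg
Cox8b, chr7:140900397-140900696, minus strand: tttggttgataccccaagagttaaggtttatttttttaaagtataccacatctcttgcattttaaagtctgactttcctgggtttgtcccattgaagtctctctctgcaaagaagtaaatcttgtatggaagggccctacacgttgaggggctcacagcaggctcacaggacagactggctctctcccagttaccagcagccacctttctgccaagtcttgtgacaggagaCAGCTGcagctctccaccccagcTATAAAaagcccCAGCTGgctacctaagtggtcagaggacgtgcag
Cox8a, chr19:7217567-7217866, minus strand: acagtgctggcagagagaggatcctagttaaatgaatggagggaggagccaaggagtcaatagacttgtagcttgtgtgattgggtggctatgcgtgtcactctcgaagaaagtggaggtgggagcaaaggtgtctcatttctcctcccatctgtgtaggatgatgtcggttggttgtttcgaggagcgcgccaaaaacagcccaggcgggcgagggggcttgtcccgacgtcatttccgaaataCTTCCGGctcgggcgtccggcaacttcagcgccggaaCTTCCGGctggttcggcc

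These windows differed in base composition. The Cox8b window had 48.3% G and C with 2 CpG dinucleotides and the Cox7a1 window 53.0% with 7, against 56.0% with 19 in Cox8a and 56.7% with 20 in Cox7a2. Over all 32851 windows of the RefSeq table the medians were 52.7% and 7, and over the member windows they were 58.3% and 20, so members were richer in G and C, whose part in the shares of motifs given next was not tested. Cox8b held the letters TATAAA and 2 copies of CAGCTG, Cox8a held CCGGAAG at 2 places on the opposite strand, Cox7a2 held 1 GGGCGG, and Cox7a1 held none of the 8 motifs.

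The motif search covered 83 windows of 78 members and all 32851 windows of the table, on both strands. The palindromic consensus of NRF1 was in 8.43% of member windows and 0.971% of all windows. CCGGAAG, of the ETS type, was in 25.3% of member windows and 8.86% of all, and AAGATGGC, of the YY1 type, in 12% and 2.75%, where the end of the ETS letters and the start of the YY1 letters are the same and the sites can overlap. AAGGTCA, of the estrogen-related receptor type, was in 9.64% of member windows and 4.72% of all, and the GC box GGGCGG in 45.8% and 35.7%. The other letters had lower shares in members: the palindromic MEF2 consensus in 2.41% against 3.69% of all, and CAGCTG in 7.23% against 16.3%, with TATAAA in 10.8% against 13.6%. A match describes letters only.

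The share of each form within its subunit shifted as well. The share is the TPM of a form over the summed TPM of its set, and was compared between the 12 hearts and 12 faces with a two-sided permutation test (100000 resamples of the tissue labels) adjusted over the 7 sets. Cox7a1 made up 50.6 ± 6.92% of Cox7a1 and Cox7a2 in hearts and 1.95 ± 0.827% in faces (SD, n = 12 each; permutation p = 2e-05, the smallest these resamples can give; adjusted p = 2.8e-05). On counts, without length scaling, its share was 19.1% in hearts and 0.462% in faces. The level of this share therefore rests on the short effective lengths that TPM divides by, while its direction does not.

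Cox6a2 made up 14 ± 2.26% of subunit 6a transcripts in hearts and 0.0495 ± 0.0559% in faces, and Cox8b 4.08 ± 1.5% of subunit 8 transcripts in hearts and 0.0274 ± 0.0293% in faces (SD, n = 12 each, permutation test, adjusted p = 2.8e-05 for both). On counts the shares in hearts were 17.1% for Cox6a2 and 1.57% for Cox8b, against 0.0622% and 0.0108% in faces. Even in hearts, the widely expressed Cox6a1 and Cox8a were thus the main forms in RNA. Atp5g1 made up 26.2 ± 1.92% of the subunit c transcripts in hearts and 17 ± 0.958% in faces (adjusted p = 2.8e-05). Outside these tissues its share was 31.6 to 35.4% in lungs, 24.4 to 25.8% in gut and 15.5 to 20.5% in midbrain, forebrain and neural tube.

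**Figure D4:**
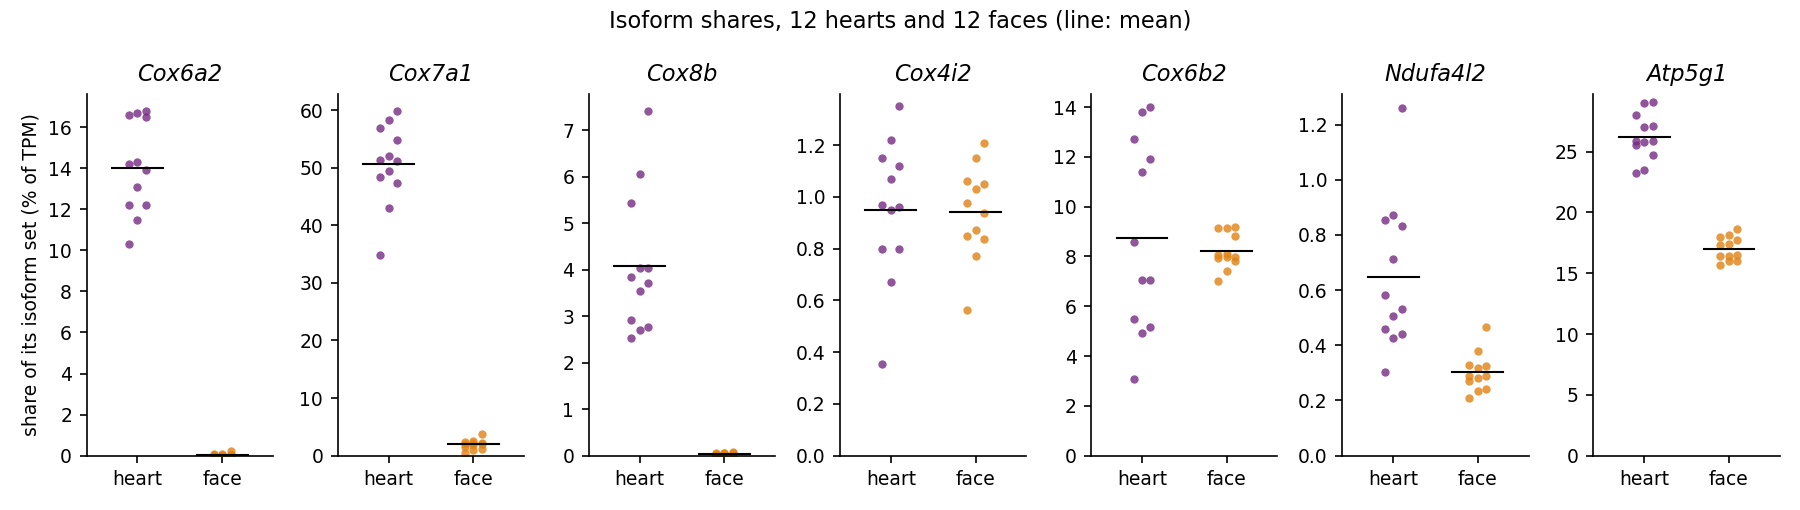
Share of 7 forms in the summed TPM of their set (vertical axes, %), in 12 hearts and 12 faces; points are libraries and lines are means, and each panel has its own axis from 0. Hearts and faces do not overlap for Cox6a2, Cox7a1, Cox8b and Atp5g1, and they overlap for Cox4i2, Cox6b2 and Ndufa4l2.

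Not every alternative form followed heart. Cox4i2, the form of subunit 4 known from lung and low oxygen, was 0.951 ± 0.269% of subunit 4 transcripts in hearts and 0.941 ± 0.176% in faces, a difference of 0.0094 points (adjusted p = 0.919, permutation test). Cox6b2, known from testis, was 8.76 ± 3.84% in hearts and 8.22 ± 0.707% in faces (adjusted p = 0.737), with hearts spread over 3.06 to 14%. Ndufa4l2, a homologue of Ndufa4 induced by low oxygen, was 0.649 ± 0.269% in hearts and 0.302 ± 0.0696% in faces (adjusted p = 2.8e-05), and on counts 1.88% in hearts and 0.879% in faces. In the 4 wild-type hearts and 4 wild-type faces alone, an exact permutation test gave an adjusted p of 0.04 for Cox6a2, Cox7a1, Cox8b, Ndufa4l2 and Atp5g1, of 0.4 for Cox4i2 and of 0.133 for Cox6b2.

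By counts, both Cox4i2 and Cox6b2 were called higher in heart. Cox6b2 had 11.1 to 57.1 CPM in hearts (median 29.9) and 10.6 to 17.4 CPM in faces (median 14.3), with a log2 fold change of 1.15 (SE 0.24), and 0.60 without the 5 hearts with most Hba-x (adjusted p = 0.00845, edgeR). Cox4i2 had 2.43 to 8.75 CPM in hearts and 1.89 to 4.35 CPM in faces (log2 fold change 0.81, SE 0.17), and within B3 alone the difference of 0.55 was not called (adjusted p = 0.202, edgeR). Both genes overlapped between the tissues. Ndufa4l2 had 1.99 to 7.78 CPM in hearts and 0.787 to 1.56 CPM in faces, with no overlap (log2 fold change 1.89, SE 0.20).

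Assembly factors help build the complexes without staying in them. Of the 15 assembly and related genes, 10 were higher in heart and 3 lower, with a median log2 fold change of 0.35. Ndufaf1, a factor of the complex I membrane arm, had 10.0 to 18.5 CPM in hearts and 6.32 to 10.2 CPM in faces (0.92, SE 0.08). Ndufaf2, another assembly factor of complex I, went the other way, with 11.7 to 18.9 CPM in hearts (median 14.7) and 13.3 to 26.6 CPM in faces (median 20.2), a log2 fold change of -0.47 (SE 0.10, adjusted p = 0.000197, edgeR). The complex II factors Sdhaf3 (-0.25) and Sdhaf4 (-0.15) were also lower in heart, and Sdhaf1 (-0.18) and Sdhaf2 (0.11) did not pass the test. None of the 3 decreases was called in the 4 wild-type hearts and faces alone.

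Other genes of energy metabolism were read from lists outside the rule. The cytochrome c list was higher in heart for 3 of 3 genes (median log2 fold change 1.26, Cyc1 1.26, Cycs 1.03). It includes Cyc1, cytochrome c1, a complex III subunit that the name rule leaves out. The tricarboxylic acid cycle was higher for 14 of 14 (1.14), fatty acid oxidation for 16 of 16 (1.27) and glycolysis for 18 of 19 (1.11). Cpt1b, the muscle form of the enzyme that admits fatty acids to mitochondria, had the largest difference of these (7.18, SE 0.21). Assembly factors outside the rule were higher for 22 and lower for 2 of 29 (0.47), mitochondrially encoded protein genes higher for 13 of 13 (1.51), and 5 transcriptional regulators higher and 3 lower of 8 (0.93). Red blood cell genes were higher for 4 of 4 (3.36) and heart muscle genes for 7 of 7 (11.36).

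In B2, 12 lungs were compared with 8 hearts, with genotype as a term. Of 95 members tested, 94 were lower in lung and 0 higher, where 38.8% of all 15780 genes were called lower and 41.7% higher. The median log2 fold change was -1.90, against 0.06 over all genes, and 92 members did not overlap between the tissues (42.2% of all genes). Without the lungs E5420-07 and E5420-09, 94 members were called lower with a median of -1.86, and the share of all genes called there was not computed. Sdhaf3 was the exception, with 3.82 to 7.38 CPM in lungs and 4.5 to 7.52 CPM in hearts (log2 fold change 0.01). The lungs also had the shorter fragments and the Rn7s1 reads described above, and tissue and library cannot be told apart in this contrast.

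The muscle forms were almost absent from lung. Cox6a2 had 0 to 0.0975 CPM in lungs, against 70.8 to 149.6 CPM in B2 hearts, and Cox8b had 0 to 0.0421 CPM in lungs, against 8.9 to 17.1 CPM in hearts. Cox6a2 collected 6 counts and Cox8b 2 counts over all 12 lungs, so no fold is given. Cox7a1 had 0 to 0.341 CPM in lungs and 35.5 to 57.2 CPM in hearts.

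Among the other genes, the complex III subunit Uqcrq stood lowest in lung. It had 11.9 to 42.3 CPM in lungs (median 21.5), against 180.4 to 298 CPM in hearts (median 244), a log2 fold change of -3.40 (SE 0.14). Atp5g3 (-2.96) and Cox6a1 (-2.87) followed. Complex IV subunits fell by a median of 2.35 on the log2 scale, complex III by 2.18, complex I by 1.87, complex V by 1.85 and complex II by 1.73. Tricarboxylic acid cycle genes were lower in lung for 14 of 14 (median -1.84), and of the mitochondrially encoded protein genes 10 of 13 were lower (median -2.26).

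Cox4i2 was low in these lungs. It had 1.25 to 2.98 CPM in lungs and 9.07 to 14.8 CPM in B2 hearts, and 0.73 to 4.7 TPM in lungs against 22.4 to 33.2 TPM in B2 hearts. Its share of subunit 4 transcripts was 0.699 to 1.7% in lungs and 0.354 to 1.6% in all hearts, so that by share the tissues overlapped. B2 hearts held more of it than other hearts, where it reached at most 18.1 TPM.

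In B4, gut and midbrain were compared over 4 libraries each. Of 92 members tested, 48 were higher in gut and 1 lower, where 35.9% of all 15728 genes were called higher and 30.7% lower. The median log2 fold change was 0.25, against 0.05 over all genes. The tissues did not overlap for 37 of the 92 members, which was the case for 61.5% of all genes. In the 2 wild-type libraries of each tissue alone 24 were called higher and 0 lower, and the share of all genes called there was not computed. The gut libraries held liver genes, and their part in these values was not tested.

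The largest differences were in alternative forms and assembly factors rather than core subunits. Ndufa4l2 had 2.46 to 3.04 CPM in gut and 0.698 to 1.46 CPM in midbrain (log2 fold change 1.44, SE 0.27). Cox6b2 had 16.3 to 20.3 CPM in gut and 5.71 to 8.72 CPM in midbrain (1.26, SE 0.15). The Cox6b2 share of subunit 6b transcripts was 10.8 to 12.3% in gut and 4.79 to 6.49% in midbrain. Its median in gut (11.5%) was the highest of the 7 tissues, although single hearts reached 14%. Cox4i2 (1.09) was called over all libraries but not in the wild-type libraries alone (adjusted p = 0.13, edgeR), nor without A39, A40 or A42 (0.94, 0.84 and 0.93).

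The complex II anchor Sdhd differed by 0.92 (SE 0.06), with 184 to 194 CPM in gut and 92.2 to 109 CPM in midbrain. Of the other complex II subunits, Sdha was also called higher in gut (0.24, SE 0.06), with 271 to 314 CPM in gut and 245 to 256 CPM in midbrain, although not in wild-type libraries alone (0.15), while Sdhb differed by 0.00 and Sdhc by 0.01, and neither passed the test. Ndufaf1 had 11.3 to 14 CPM in gut and 4.44 to 7.37 CPM in midbrain (1.08, SE 0.17), and Atp5g1 had 137 to 167 CPM in gut and 81.5 to 93.9 CPM in midbrain (0.81, SE 0.07). Complex III subunits were higher in gut for 7 of 8. The complex II assembly factor Sdhaf1 was the only member called lower, with 14.7 to 26.7 CPM in gut and 26.8 to 31.7 CPM in midbrain (-0.51, SE 0.17). The call was lost without the homozygous gut library A43 (-0.47, adjusted p = 0.0612, edgeR) and in the wild-type libraries alone (-0.51, adjusted p = 0.163, edgeR).

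In B8, forebrain and neural tube were close. Of 95 members tested, 1 was higher in forebrain and 2 lower, where 16.7% of all 15517 genes were called higher and 19.5% lower. The median was 0.06, against 0.01 over all genes, and in the libraries labelled wild-type alone it was -0.04. The tissues did not overlap for 5 of the 95 members, which was the case for 33.6% of all genes. Leaving out 1 library in turn gave 0 to 8 members higher and 0 to 8 lower, so these counts rest on single libraries. Without the forebrain A29, 8 members were higher. Without the forebrain A31, 8 were lower. Without the neural tube A36, 0 were lower (Cox6a2 adjusted p = 0.0529 and Cox8b 0.0548, edgeR), and without the forebrain A30 or the neural tube A34, 0 were higher. For these fits the share of all genes called was not computed.

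The decreases were again muscle forms. Cox6a2 had 0 to 0.269 CPM in forebrain and 0.412 to 1.4 CPM in neural tube (log2 fold change -2.24, SE 0.59), over 17 counts in forebrain and 69 in neural tube. Cox8b had 0.0475 to 0.299 CPM in forebrain and 0.412 to 1.4 CPM in neural tube (-1.92, SE 0.50). Muscle genes moved the same way: the 4 skeletal muscle markers summed to 3.12 to 5.62 TPM in forebrain and 107 to 203 TPM in neural tube, and the 7 heart muscle genes to 1.45 to 15.9 TPM in forebrain and 348 to 451 TPM in neural tube. Their part in the difference was not tested. Cox7a1, in contrast, had 0.269 to 0.713 CPM in forebrain and 0.137 to 0.503 CPM in neural tube, and was not called (0.98, adjusted p = 0.14, edgeR). The member higher in forebrain was the complex I assembly factor Ndufaf4, with 32.5 to 40.9 CPM in forebrain and 25.7 to 32.2 CPM in neural tube (0.35, SE 0.10).

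The genes whose TPM followed each muscle form most closely across the 64 libraries were named from 15638 genes by Spearman's rho, as a description over libraries that share tissues and lines. For Cox6a2 they were Mb (0.93), Acta1 (0.917), Tnnc1 (0.909), Idh2 (0.907) and Casq1 (0.905), which include the oxygen store myoglobin, skeletal actin and cardiac troponin C. For Cox8b they were Mb (0.904), Casq1 (0.902), Ckmt2 (0.898), Tmem38a (0.893) and Myh7 (0.885), among them the mitochondrial creatine kinase of muscle. For Cox7a1 the list was different in kind: Uqcrq (0.904), Mcrip2 (0.901), Tspo (0.898), mt-Nd1 (0.897) and Fam162a (0.896), with 1 other member and 1 mitochondrially encoded subunit of complex I.

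The deletions were the study's main variable, and each line was compared with its own wild-type littermates in each tissue. No member was called in any of the 12 comparisons of homozygous with wild-type libraries by edgeR. The share of all genes called higher and lower was 0.00657% and 0.00657% in B3 face, 0 and 0.00677% in B4 midbrain, 0.0131% and 0.0592% in B6 face, 0.0263% and 0.00659% in B7 face, 0.00659% and 0.00659% in B8 neural tube and 0 in the other 7 comparisons. DESeq2 called 0 members in 11 comparisons and 2 lower in the B7 face, and its share of all genes called was not computed. At an unadjusted p under 0.05 the number of members was 0 in B2 lung, B4 gut and B5 heart, 1 in B5 face and B6 face, 2 in B8 neural tube, 4 in B4 midbrain, 5 in B3 heart, 9 in B8 forebrain, 12 in B7 face, 33 in B3 face and 34 in B2 heart.

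**Figure D5:**
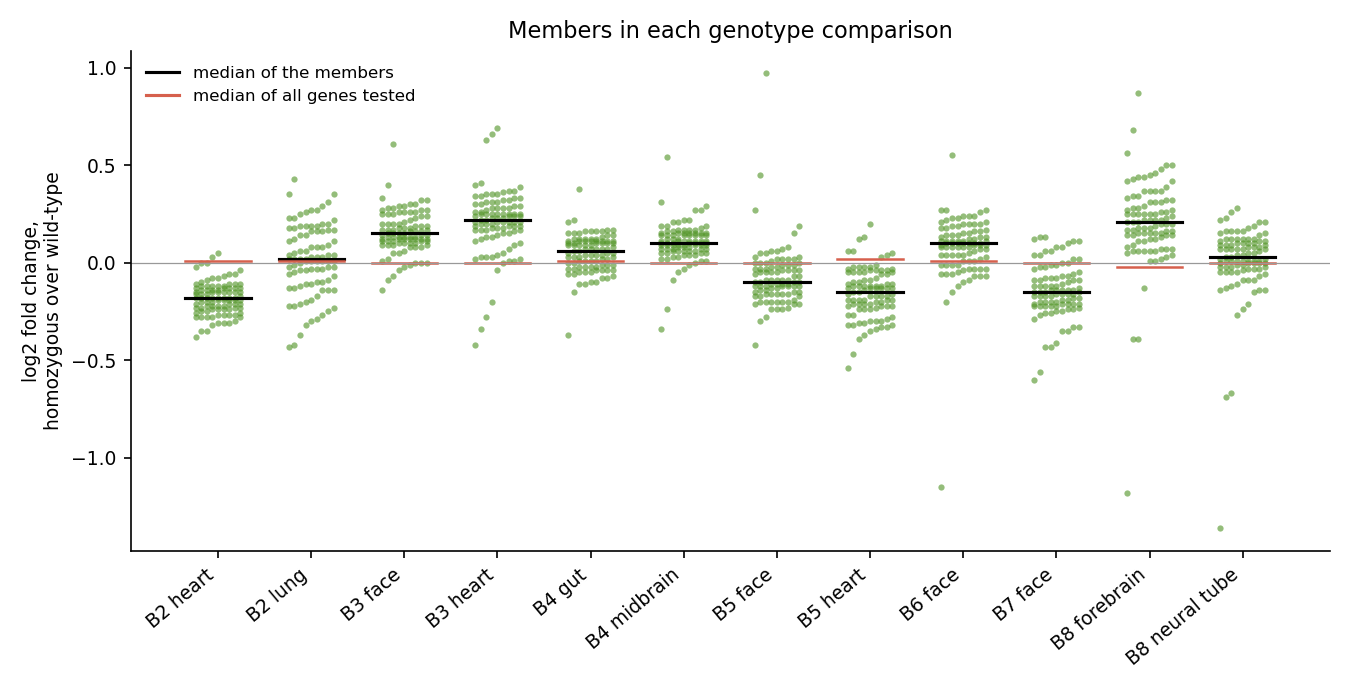
Log2 fold change of each member tested, homozygous over wild-type (vertical axis), in the 12 comparisons (horizontal axis); points are genes, black lines are the medians of the members and red lines those of all genes tested. The medians of members lie between -0.18 and 0.22 while the medians of all genes stay between -0.02 and 0.02, and no point passed an adjusted p under 0.05.

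Although no single gene was called, the members tended to lie on 1 side of 0 in most comparisons. The share of all genes above 0 is given for B2 hearts only. In B2 hearts, 4 of 95 members were above 0 (52.1% of all genes) with a median log2 fold change of -0.18, against 0.01 over all genes, and 34 of 95 had an unadjusted p under 0.05 (4.85% of all genes). In B3 faces 86 of 93 were above 0 (median 0.15) and 33 had an unadjusted p under 0.05 (9.49% of all genes), and in B3 hearts 89 of 95 (median 0.22), with 5 so marked (9.47%). In B5 hearts 8 of 95 were above 0 (median -0.15; 0.748% of all genes had an unadjusted p under 0.05) and in B5 faces 21 of 93 (median -0.10; 3.21%). The medians thus had different signs among lines in the same tissue, a difference that was not tested, and the members, which share libraries, are not independent.

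In the remaining comparisons the medians lay between -0.15 and 0.21. Percentages in brackets are shares of all genes with an unadjusted p under 0.05, not of genes above 0. In B4 midbrain 85 of 92 members were above 0 (median 0.10; 7.25% of all genes had an unadjusted p under 0.05), in B4 gut 66 of 93 (median 0.06; 6.9%) and in B6 face 71 of 93 (median 0.10; 8.65%). In B7 face 15 of 93 were above 0 (median -0.15; 7.55%) and in B2 lung 53 of 92 (median 0.02; 3.19%). In the B8 forebrains 89 of 93 were above 0 (median 0.21; 5.57%) in the libraries labelled homozygous, a direction that is uncertain because these labels, or the study's own gene list for this tissue, may have the genotypes reversed, and in B8 neural tube 60 of 94 (median 0.03; 10%).

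Single libraries moved these medians. Without the homozygous B5 heart A21 the median in B5 hearts was 0.18, and without the other homozygous heart, A22, it was -0.60. Without the B8 forebrain A29 the median was 0.44 in the libraries labelled homozygous (-0.01 over all genes), while without A31 it was 0.03. In B3 hearts the median was 0.40 without the wild-type heart A14 and 0.08 without the wild-type heart A16. Without the wild-type B7 faces A25 and A26 in turn the median was -0.08 and -0.22. In B5 faces it ran from -0.25 to 0.06, the latter without the wild-type face A19. In B2 hearts the median was -0.11 without the homozygous heart A58, which had the lowest sum of heart muscle genes in that line (17971 TPM, against 25878 to 29398 TPM in the other 7) and liver genes at 699 TPM. Without A58 no member was called. Where 1 library was left in a group, counts of calls are given only with the other processing settings further on. The share over all genes was not computed for these fits, so no conclusion is drawn from those counts. The part of tissue makeup in these values was not tested.

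The member with the smallest p was named in each comparison. In B2 hearts it was Ndufs6, an accessory subunit of complex I, with 138, 150.4, 133 and 122 CPM in homozygous hearts, against 162, 166, 158 and 182 CPM in wild-type hearts. The groups did not overlap, and the log2 fold change was -0.30 (SE 0.08, adjusted p = 0.867, edgeR). In B3 faces the ATP synthase subunit Atp5l had 109.6 and 104 CPM in homozygous faces, against 88.8 and 87.1 CPM in wild-type faces (0.28, SE 0.06, adjusted p = 0.503, edgeR). In B7 faces the accessory complex I subunit Ndufa3 had 48.1 and 47.0 CPM in homozygous faces, against 77.2 and 63.1 CPM in wild-type faces (-0.56, SE 0.11, adjusted p = 0.311 by edgeR and 0.0206 by DESeq2).

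In the other comparisons the smallest p came from a different gene nearly each time. The complex II anchor Sdhc had 199 and 175 CPM in homozygous B3 hearts, against 153 and 129.7 CPM in wild-type hearts (0.41), and 93.3 and 93.5 CPM in homozygous B4 midbrains, against 79.8 and 80.4 CPM in wild-type midbrains (0.22). Cox7b in B4 gut had 105 and 104 CPM in homozygous libraries, against 99.9 and 79.4 CPM in wild-type (0.22), and Ndufs6 in the B8 forebrain had 60.6 and 74.2 CPM in the libraries labelled homozygous, against 48.5 and 51.1 CPM in those labelled wild-type (0.44). The core complex III protein Uqcrc1 had 228 and 239 CPM in homozygous B5 faces, against 285 and 266 CPM in wild-type faces (-0.24). Atp5j2 in B5 hearts had 183 and 249.8 CPM in homozygous libraries, against 261 and 270.0 CPM in wild-type (-0.30), where the lower value is that of A21. Cox4i2 in B6 faces had 4.58 and 4.76 CPM in homozygous libraries, against 3.4 and 3.0 CPM in wild-type (0.55), and Cox8b in B8 neural tubes 0.414 and 0.506 CPM in homozygous libraries, against 0.956 and 1.41 CPM in wild-type (-1.36), on few counts. In B2 lungs it was Ndufa5 (0.35, SE 0.21, and 0.15 to 0.42 without single lungs). It had 6.73 and 14.3 CPM in the wild-type lungs E5420-07 and E5420-09, and 18.4 to 19.7 CPM in the other wild-type lungs. The homozygous lungs had 19.4 to 21.6 CPM. None of these genes passed the adjusted threshold (smallest adjusted p = 0.476, edgeR).

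Counts of members whose homozygous and wild-type libraries did not overlap ran close to or below those of all genes in several comparisons and above them in others. In B2 hearts 23 of 95 members did not overlap, all lower in homozygous hearts (3.14% of all genes), and in B2 lungs 0 of 92 (0.259%). With 2 libraries a side the numbers were 72 of 93 in B3 face (70 higher; 43.1% of all genes), 55 of 95 in B3 heart (53 higher; 45.8%), 52 of 92 in B4 midbrain (50 higher; 41.4%) and 56 of 93 in B7 face (51 lower; 38.9%). They were 45 of 93 in B8 forebrain (42 higher in the libraries labelled homozygous; 37.6%), 23 of 94 in B8 neural tube (42.9%), 13 of 93 in B6 face (39.2%), 12 of 93 in B5 face (32.4%), 8 of 95 in B5 heart (19.8%) and 8 of 93 in B4 gut (36.3%).

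The mitochondrially encoded genes did not always move with the nuclear ones. In B3 hearts their median log2 fold change was 0.80 beside 0.22 for the nuclear members, and in B2 hearts -0.45 beside -0.18. In B6 faces it was -1.41, with 3 of 13 called lower, beside 0.10 for the nuclear members, and in B7 faces -0.57, with 1 of 13 called lower, beside -0.15. Whether the nuclear and mitochondrial sets differ was not tested.

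Only 1 member lies within 2 Mb of a deletion: Atp5a1, at 1.987 Mb from the B3 boundary on the same chromosome. It had 1060 and 1049 CPM in homozygous B3 faces, against 1064 and 1080 CPM in wild-type faces (-0.02, adjusted p = 0.908, edgeR), and 2341 and 2021 CPM in homozygous B3 hearts, against 1937 and 1537 CPM in wild-type hearts (0.33, adjusted p = 0.562, edgeR). The median of all members in B3 hearts was 0.22.

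Whether the effect of a deletion differed between the 2 tissues of a line was tested by an interaction term in B2, B3, B4, B5 and B8. No member was called in any of the 5 tests by edgeR, where 0.0311% of all genes were called lower in B3. At an unadjusted p under 0.05 there were 5 of 95 members in B2 (3.02% of all genes) and 1 of 95 in B3 (9.12%). There were 0 of 93 in B4 (4.4%), 0 of 95 in B5 (1.33%) and 1 of 95 in B8 (3.39%). The smallest p was that of Ndufaf2 in B3 (difference -0.61, SE 0.21, heart minus face; unadjusted p = 0.0187, edgeR), and it did not pass the adjustment.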

How the data were processed

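The authors prepared libraries from RNA purified with RNeasy columns, sequenced them as 150-base pairs and ran the ENCODE long RNA-seq pipeline (STAR, RSEM; mm10, GENCODE M4). The deposited tables give, from the authors' RSEM, an expected count, a TPM and an FPKM per gene and library, of which FPKM was not used. One preparation is described for all tissues, lung included.

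Expected counts were rounded, genes low in all groups were dropped (filterByExpr), TMM factors were computed, and edgeR 4.0.16 (R 4.3.3) gave the tests (two-sided quasi-likelihood test, Benjamini-Hochberg adjustment over all genes tested, adjusted p under 0.05). DESeq2 1.42.0 was an alternative. Each genotype comparison used the libraries of 1 line and tissue. CPM are TMM-scaled. Tables, permutation tests and figures used Python 3.11.15, pandas 2.3.3, numpy 2.4.6, scipy 1.17.1 and matplotlib 3.10.9. Symbols came from a GENCODE annotation matched by Ensembl ID without version. Shared reads limit some genes: 26 members had a fractional count in some library (over 0.01 from whole). Among them were Ndufs1 (44 libraries), Atp5g1 (61), Atp5g2 (64) and Cox5b (64). Of all members, 27 overlap a protein-coding gene (Ndufs1 overlaps Eef1b2), and strand use in counting is not given in the sources used here. The fits were tested on simulated data with planted changes larger than nearly all genotype changes given here. That test cannot tell whether changes as small as those would be found.

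Named genes were the isoform members, core subunits (Ndufv1, Ndufv2, Ndufs1, Sdha, Sdhb, Uqcrc1, Uqcrfs1, Cox5a, Cox5b, Atp5a1, Atp5b and 1 that is not reported here), up to 6 called members with the largest changes per direction and tissue comparison without overlap of libraries, members called between genotypes or else that of smallest p, members within 2 Mb of a deletion, the 3 highest and 3 lowest medians, and the 5 genes most like Cox6a2, Cox7a1 and Cox8b (over genes with at least 640 counts). Other genes were named after their values were seen. The members and lists were chosen with earlier results of these data known. Alternatives were another normalization, no filter, single libraries, lines or genotypes left out, sex or embryo code as a term in lung, and shares from counts. The 23 Hi-C samples were not used here.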

Additional observations from a re-analysis of the deposited data

Results flagged for a closer look

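Of 36 sets of 4 to 10 libraries of 1 group, 5 held a library whose gap to the others passed Dixon's 95% critical value, where chance gives about 1 in 20. Atp5b was 187 TPM in the wild-type lung E5420-09, against 567 to 789 TPM in the other wild-type lungs. In the same library Atp5g1 was 40 TPM, against 129.6 to 183 TPM, and this library is the one whose 10 most abundant genes took 90.1% of counts. Atp5g1 was 1486 TPM in the wild-type B2 heart A60, against 1345 to 1352 TPM in the other wild-type B2 hearts. Cox6a2 was 0.06 TPM in the homozygous lung E5406-01, against 0 in the other homozygous lungs, and 0.19 TPM in the wild-type lung E5406-03, against 0 to 0.07 TPM in the others, values that rest on single counts.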

How the results depend on the processing

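Of 321 alternative values of the main results, 282 stayed the same, within 1.5 times or on their side of the threshold, and 39 did not. Most of these values were numbers of members called. In the genotype comparisons the main number was 0, and staying at 0 counted as unchanged (113 values without single libraries, 75 under other settings). Medians and named genes were tallied apart. There 1004 values stayed the same, 33 lost their call, 7 gained one, 10 reversed and 7 moved. The number of members called lower in heart was 0 in wild-type libraries alone, 1 in B3 alone and 0 in B5 alone. In gut over midbrain, wild-type libraries alone gave 24 members higher and 0 lower, DESeq2 and RLE factors gave 3 lower each and no filter 2, and leaving out single libraries gave 33 to 58 higher and 0 to 4 lower. In forebrain over neural tube, DESeq2 gave 2 higher and 4 lower, no filter 2 higher, and the libraries labelled wild-type alone 5 lower with a median of -0.04, where the forebrain labels are in doubt. Leaving out single libraries there gave 0 to 8 higher, 0 to 8 lower and medians of -0.04 to 0.12. Between genotypes, no filter gave 9 members higher in B3 face and 4 lower in B7 face, and DESeq2 2 lower in B7 face. The share of all genes called was not computed under any alternative setting, nor without single libraries. Outside B2, leaving out a library left 1 in its genotype group. The counts given next therefore cannot show whether members were called more often than other genes. Leaving out single libraries gave 0 to 1 higher in B3 heart, 0 to 3 higher in B4 gut, 0 to 25 lower in B5 face, 0 to 8 lower in B5 heart, 0 to 2 lower in B7 face and 0 to 43 higher in B8 forebrain (by its doubtful genotype labels), and 0 in the other 6 comparisons. The median of members changed sign in B2 lung with DESeq2 (-0.01), and the range without single libraries was -0.02 to 0.05 in B2 lung, -0.12 to 0.20 in B4 gut, -0.25 to 0.06 in B5 face, -0.60 to 0.18 in B5 heart, -0.11 to 0.31 in B6 face and -0.06 to 0.14 in B8 neural tube, and, without a change of sign, 0.08 to 0.40 in B3 heart, 0.03 to 0.44 in B8 forebrain and -0.22 to -0.08 in B7 face. The cause of these changes was not tested. Rescaled to nuclear protein-coding genes, the summed level had a median of 37424 in face, 23593 in lung, 34017 in gut, 31947 in midbrain, 32354 in forebrain and 33669 in neural tube.

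With 2 libraries a group, a lone remaining library was assumed to vary like the other group. Depth was similar outside the lung (17075500 to 26483000 counts) and limits only members with few counts, such as Cox6a2 and Cox8b outside the heart. No paired analysis was possible because no label says that a replicate number marks a shared embryo, litter or day. In B2 lung, a code that several libraries of both genotypes share in their titles was used as a term instead, and it left 0 members called and the median at 0.02.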
